A study of Mus musculus with 15 samples.

Results

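Hearts of mice killed 20 hours after an injection of doxorubicin (DOX) were compared with hearts of mice injected with phosphate-buffered saline (PBS). The comparison took every array whose title begins with DOX or PBS, which gave 5 arrays per group and 10 of the 15 arrays of the series. All animals were male C57Bl/6J mice aged 10 weeks, total RNA came from myocardium, and each biotin-labelled sample was hybridised to an Illumina bead array with 45281 probes. The remaining group (VEGFB_DOX) received an AAV9 vector for VEGF-B 7 days before doxorubicin. It entered the linear model, where it shares the estimate of the spread, and it is not compared here. Per the labels, neither the PBS nor the DOX group received a vector, and the dose and route of doxorubicin are not given in the sources used here. Nothing in the labels says whether an array stands for 1 animal or whether arrays shared a preparation, so the p-values measure the spread between these arrays, which may be technical in part.

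Doxorubicin is an anthracycline used against cancer whose dose is limited by injury to the heart. It intercalates into DNA, traps type II topoisomerases on broken DNA, and takes part in redox cycling that produces reactive oxygen species. Broken DNA activates the transcription factor p53, whose targets stop the cell cycle, and DNA that reaches the cytosol can start a type I interferon response, in which transcription factors bind interferon-stimulated response elements of a large set of antiviral genes. Most cells of an adult heart by number are endothelial cells, fibroblasts and mural cells, while cardiomyocytes give most of the RNA.

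Values below are log2 intensities after the authors' normalization, and a difference is the DOX mean minus the PBS mean on that scale with its standard error (SE). A probe was called when its p-value from limma, adjusted by the Benjamini-Hochberg method over the 24861 probes tested, was under 0.05. The median SD between arrays was 0.101 in the PBS group and 0.103 in the DOX group, and the median SE of a difference was 0.07. In whole-tissue RNA, fewer cells of a type and less RNA per cell cannot be told apart. As a check of the myocardium label, the cardiac muscle marker Myh6, the alpha myosin heavy chain, read 14.53 ± 0.12 (SD, n = 5) in PBS and 14.40 ± 0.27 (SD, n = 5) in DOX on a scale that ends at 14.93.

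The array DOX 2 stood apart from its group. On the third principal component DOX 2 scored 12.3, beside 7.2 to 11.3 for the PBS arrays and -20.1 to -4 for the other DOX arrays. It was the lowest DOX array on 47 of the 56 probes called higher and the highest on 14 of the 24 probes called lower. The mean of the 56 probes, as a difference from the PBS mean, reached 0.38 on DOX 2, while the other 4 spanned 0.74 to 1.09. Erythroid markers, led by the haemoglobin genes, also set it apart, with a list mean of 0.22 on DOX 2 against -0.74 to -0.38 on the other DOX arrays, and so did fibroblast markers, with 0.13 against -0.18 to -0.15. The part of blood or stroma in the low response of DOX 2 was not tested. The second component set PBS 4, PBS 5 and DOX 5 apart from the other arrays of both groups, with scores of -18.6 to -15 against 4.7 to 14.5, and the labels name no batch that would match.

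The count of calls rested on a few arrays. The fit called 80 probes, 56 higher and 24 lower in DOX, which is 0.322% of those tested. Leaving out DOX 2 raised the count to 487, and all 80 were among them. Leaving out DOX 1 lowered it to 2, one probe each of S100a9 and Aqp4, the only calls that held in every one of the 10 fits with an array left out. Without DOX 3 the count was 11, without DOX 4 it was 21, and without DOX 5 it was 79, of which 56 were among the 80. Without PBS 1 to PBS 5 in turn it was 58, 26, 28, 17 and 22. A term in the model for the arrays that the second component set apart gave 143 calls, among them all 80, and leaving those arrays out gave 1. None of the 68 called probes with a gene symbol changed sign in any of these fits. Of these probes, 43 stayed called with only the 10 PBS and DOX arrays, 44 with no variance trend and 51 with a robust variance prior. Of the calls below, only those of S100a9 and Aqp4 therefore held without DOX 1, and a list's count without DOX 2 is given where it differs from that with all arrays. DOX 2 was singled out by its weak response in these same data, so leaving it out favours larger differences. Calls made only without DOX 2 describe this dependence and are not added support.

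**Figure D1:**
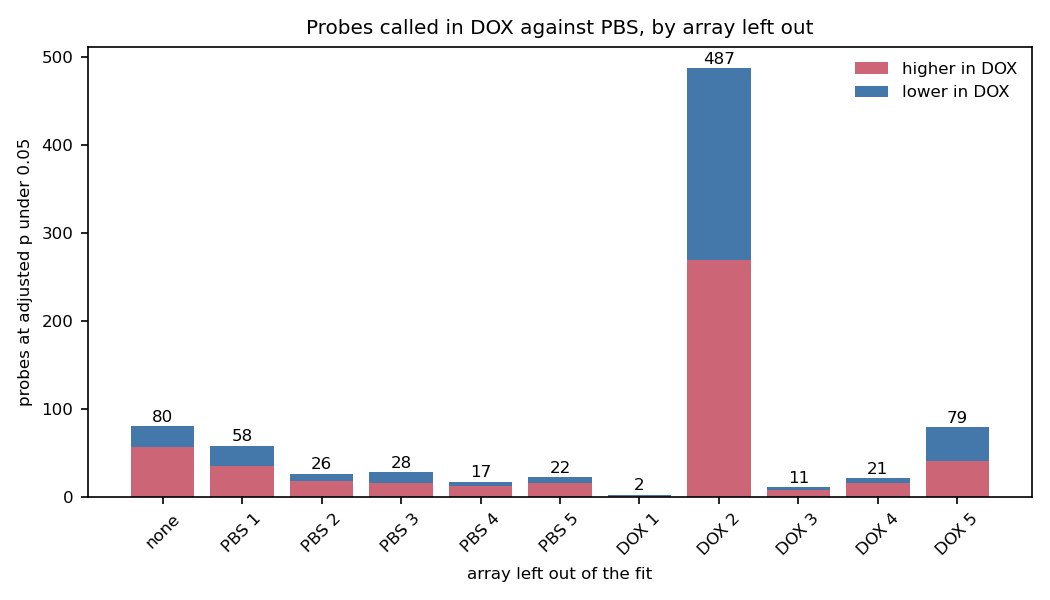
Number of probes called between DOX and PBS (vertical axis, probes at an adjusted p under 0.05) with all arrays and with each PBS or DOX array left out (horizontal axis), split into higher and lower in DOX. The count is 80 with all arrays, 2 without DOX 1 and 487 without DOX 2.

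Of the 80 called probes, those with a symbol stand for 37 genes that rose and 19 that fell. Of all called probes, 10 rose and 1 fell by at least 2-fold, with background left in. The 5 arrays of each group did not overlap on 40 of the 56 probes called higher and on 21 of the 24 called lower, where 1.93% of all tested probes had groups that did not overlap. Counted by the brightest probe of each of 12750 genes, 36 genes, or 0.282%, were called higher and 17, or 0.133%, lower. Without DOX 2 these were 176 genes, or 1.38%, and 143 genes, or 1.12%. Of the 35 called genes with several tested probes, 8 had every probe called and 7 had a probe of the opposite sign, which were H3c10, Nme7, Nudt7, Prkg1, Prrx1, Rragd and Tmem65. A further 12 called probes, 7 higher and 5 lower, have no symbol and are not named.

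**Figure D2:**
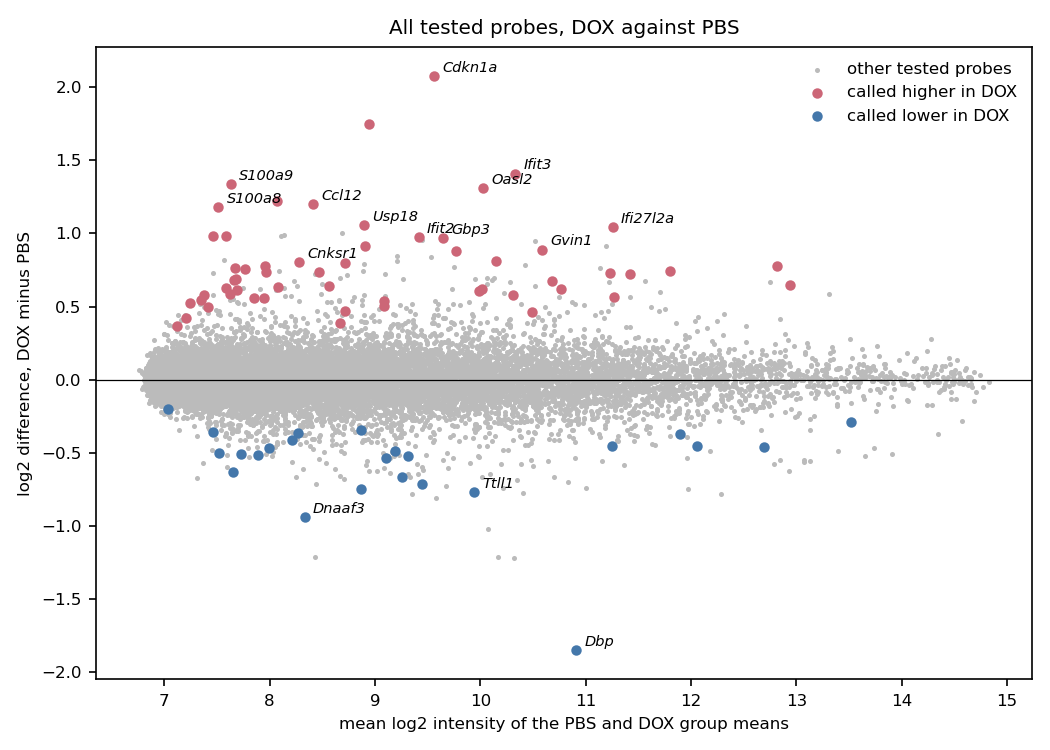
Difference between groups (vertical axis, log2 DOX minus PBS) against the mean log2 intensity (horizontal axis) for all 24861 tested probes, with the 56 probes called higher and the 24 called lower in colour and some of the most changed genes labelled. Cdkn1a lies highest at 2.08 and Dbp lowest at -1.85.

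The largest rise was in a p53 target that stops the cell cycle, and 2 other p53 targets rose by less. Cdkn1a, which encodes the cyclin-dependent kinase inhibitor p21, read 8.97, 8.20, 8.73, 8.73 and 7.97 on PBS 1 to PBS 5 and 10.99, 9.87, 10.99, 10.67 and 10.48 on DOX 1 to DOX 5. Every DOX array lay above every PBS array, and DOX 2 was the lowest of the DOX arrays. The rise was 2.08 (SE 0.33, n = 5 per group), or 4.23-fold, at an adjusted p of 0.0106, and all 3 Cdkn1a probes were called, with rises of 1.22 to 2.08. With a robust variance prior, the probes with the largest and the smallest rise lost the call (adjusted p = 0.0526 and 0.0626). Phlda3, a repressor of Akt signalling that p53 induces, rose by 0.77 and 0.76 on its 2 probes at adjusted p of 0.0297 and 0.00921. The second of these read 7.41, 7.34, 7.30, 7.33 and 7.53 in PBS and 8.35, 7.76, 8.33, 8.15 and 8.12 in DOX, with no overlap. Ei24, an endoplasmic reticulum protein first found as a gene induced by etoposide, rose by 0.67 (SE 0.13, adjusted p = 0.0387) on the probe with the larger change, and on that probe the PBS arrays lay between 10.29 and 10.43 and the DOX arrays between 10.55 and 11.55.

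Of 34 listed p53 targets, 28 had a tested probe, and 22 of these were higher and 6 lower in DOX with a median difference of 0.14, against -0.002 over all tested genes. By brightest probe 3 were called higher and 0 lower, and Cdkn1a, Phlda3 and Ei24 were those 3. Without DOX 2 the count was 7 higher and 0 lower, adding Ccng1 (cyclin G1), Trp53inp1, Dcxr and Gtse1. With all arrays Dcxr, a carbonyl reductase, differed by 0.74 (adjusted p = 0.127) and Gtse1, which binds p53 in the G2 phase, by 0.44 (adjusted p = 0.111). Mdm2, the ubiquitin ligase that limits p53, differed by 0.37 and 0.41 on its probes at adjusted p of 0.394 and 0.265, so its difference did not pass the test. The mean of the list lay between -0.03 and 0.02 on the PBS arrays, at 0.05 on DOX 2, and between 0.30 and 0.49 on the other DOX arrays. Trp53 itself and Bax were not analysed here.

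The RefSeq promoter table used here holds 45 of the 56 called genes, and the 300 bases around each start site, 250 before to 50 after, were searched on both strands. A decamer of the p53 consensus, in which 2 such decamers make a response element, was found in 9 of 30 genes called higher and 2 of 15 called lower, 30.0% and 13.3%, where 8.4% of tested genes held one. Among those 9 only Cdkn1a and Ei24 are listed p53 targets. Of genes called higher on the interferon or GTPase lists described below, 3 of 11 held a decamer, or 27.3%. Among the other genes called higher it was 6 of 19, or 31.6%. Of the 3 called p53 targets, 1 start of Cdkn1a held 2 decamers, the other start held 0, Ei24 held 1 and Phlda3 held 0. The stretches around the matches are shown for Cdkn1a and Ei24, the called p53 targets with a match, with the decamers in capitals. They lie at chr17:29090886-29090957 on the plus strand and at chr9:36797335-36797364 on the minus strand of GRCm38.p6, and are printed 5′ to 3′ along the gene.
Cdkn1a: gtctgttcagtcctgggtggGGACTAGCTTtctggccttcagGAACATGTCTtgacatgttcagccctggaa
Ei24: ccagctgccccgtgcggcccGGGCATGCCC
The decamers of Cdkn1a lie between 73 and 42 bases before the start and that of Ei24 within 10 bases before it. A match describes the letters only.

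Antiviral genes of the type I interferon response gave the most calls of any list. Of 40 listed genes 32 were tested, 30 of them were higher and 2 lower in DOX, and the median difference was 0.62. By brightest probe 13 were called higher and 0 lower, against a background of 0.282% of genes called higher. Members and lists were chosen with earlier results of these data known, so this contrast describes the list and does not test it. Without DOX 2 the count was 24 higher and 0 lower, beside 1.38% of all genes. The list mean lay between -0.17 and 0.12 on the PBS arrays, at 0.23 for DOX 2 and from 0.56 to 0.90 for DOX 1, 3, 4 and 5.

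Ifit3 and Ifit2 belong to a family of antiviral proteins that bind viral RNA. Ifit3 read 9.81, 9.96, 8.98, 9.70 and 9.69 in PBS and 11.46, 10.00, 11.76, 10.94 and 11.03 in DOX, a rise of 1.41 (SE 0.25, adjusted p = 0.0283) or 2.66-fold. DOX 2 lay just above the highest PBS array, and PBS 3 lay below the other PBS arrays. The call of Ifit3 on this probe was lost with a robust variance prior (adjusted p = 0.0729). Ifit2 read 8.94, 9.17, 8.68, 8.98 and 8.87 in PBS and 10.14, 8.98, 10.47, 9.99 and 9.93 in DOX and rose by 0.97 (SE 0.19, adjusted p = 0.038). Here DOX 2 lay inside the PBS range while the other 4 DOX arrays lay above it. The Ifit2 call was lost with only the 10 PBS and DOX arrays (adjusted p = 0.0715) and with no variance trend (0.0573). It was also lost with a robust variance prior (0.0734) and with the replicate number as a block (0.06).

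Oasl2, a relative of the 2′-5′ oligoadenylate synthetases that sense double-stranded RNA, read 9.68, 9.93, 9.10, 9.14 and 9.01 in PBS and 11.11, 10.04, 11.21, 10.69 and 10.35 in DOX. Its rise was 1.31 (SE 0.21, adjusted p = 0.0123), and the groups did not overlap. Other, dimmer Oasl2 probes differed by 0.58 (adjusted p = 0.0607) and 0.03. Usp18, the protease that removes ISG15 from proteins and damps signalling at the interferon receptor, read 8.47, 8.48, 8.14, 8.42 and 8.33 in PBS and 9.71, 8.73, 9.87, 9.51 and 9.31 in DOX. It rose by 1.06 (SE 0.17, adjusted p = 0.0142), with DOX 2 the lowest DOX array and still above every PBS array. The other Usp18 probe, near background, differed by 0.20 (adjusted p = 0.182). Ifi27l2a, a small interferon-induced protein, read 11.05, 11.25, 10.55, 10.41 and 10.41 in PBS and 12.08, 11.59, 12.44, 11.57 and 11.21 in DOX. Its rise was 1.04 (SE 0.20, adjusted p = 0.0317), and here DOX 5 rather than DOX 2 was lowest, just below PBS 2. The call was lost with only the 10 PBS and DOX arrays (0.0686), no variance trend (0.052) or a robust variance prior (0.0755).

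With background left in, the other called genes of the list rose by less than 2-fold. The membrane proteins Ifitm1 and Ifitm3, which hinder the entry of viruses, rose by 0.74 and 0.65 at an adjusted p of 0.0101 each. Ifitm1 read 11.59, 11.40, 11.24, 11.48 and 11.46 in PBS and 12.43, 11.87, 12.47, 12.13 and 11.98 in DOX with no overlap, although another of its probes differed by only 0.02, and probes of such close relatives may share signal. Bst2 (tetherin, which holds budding viruses on the cell) rose by 0.74, Dhx58 (the RNA sensor LGP2) by 0.68, Lgals3bp by 0.58, Oasl1 by 0.58, and Lgals9 (galectin-9) and Samd9l by 0.47 and 0.46, at adjusted p of 0.0283 to 0.0462. Isg15, a ubiquitin-like modifier, and Irf7, the factor that amplifies interferon transcription, differed by 0.73 (adjusted p = 0.0524) and 0.99 (adjusted p = 0.0607). Both passed the test without DOX 2, at 0.00367 and 0.00446. The Irf7 groups did not overlap, with 7.49 to 7.72 in PBS and 7.88 to 9.30 in DOX. Cxcl10, an interferon-induced chemokine, sat at background with differences of 0.02 and -0.02 on its probes.

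**Figure D3:**
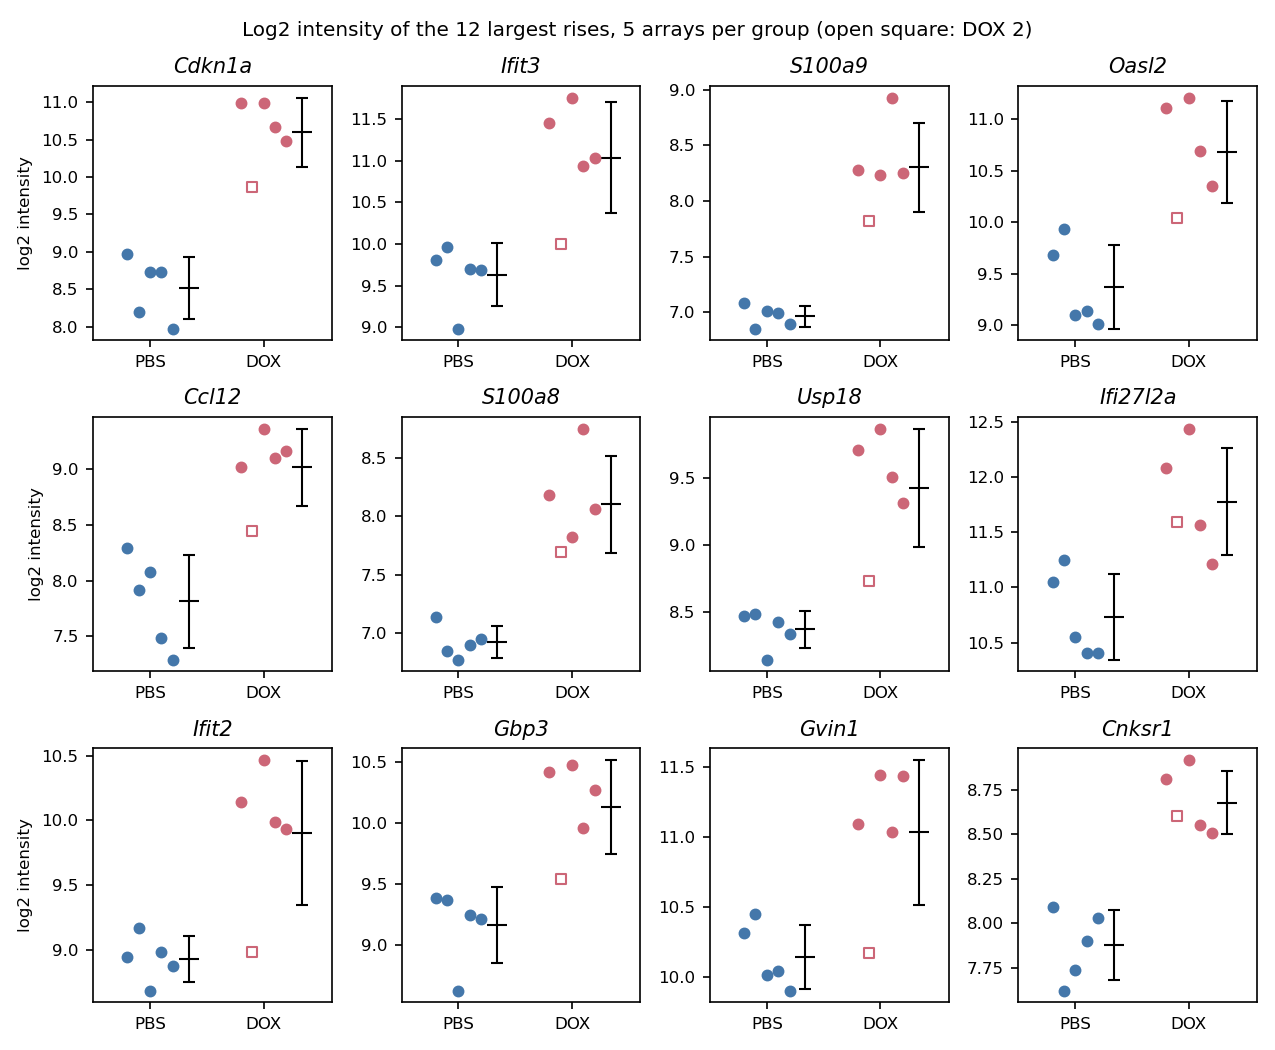
Log2 intensity (vertical axis) on each of the 5 PBS and 5 DOX arrays (horizontal axis) for the 12 largest rises, with the group mean and SD beside the points and DOX 2 as an open square. DOX 2 lies within the PBS range for Ifit2 and Gvin1 and above it for the other 10.

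A pair of the GTPases that interferons induce also rose. Of 15 listed guanylate-binding and immunity-related GTPases 12 were tested, 11 were higher, and Gbp3 and Gbp10 were called higher by brightest probe with 0 lower; without DOX 2 the count was 6 higher. The median difference was 0.50. Gbp3, a guanylate-binding protein that acts against intracellular pathogens, read 9.38, 9.37, 8.62, 9.24 and 9.21 in PBS and 10.42, 9.54, 10.48, 9.96 and 10.27 in DOX on the probe with the larger change, a rise of 0.97 (SE 0.17, adjusted p = 0.019). On this probe the groups did not overlap, and PBS 3 lay far below the other PBS arrays. The brighter Gbp3 probe rose by 0.88 (adjusted p = 0.0388), and there DOX 2, at 9.48, lay inside the PBS range of 8.91 to 9.65. The call of this brighter probe was lost in the same settings as that of Ifit2, at adjusted p of 0.0523 to 0.0797. Gbp10 rose by 0.59 (adjusted p = 0.0283), and because the genes of this family are near copies, its signal may come from a neighbour. Gvin1, a very large interferon-inducible GTPase that is in none of the lists, read 10.31, 10.45, 10.01, 10.04 and 9.90 in PBS and 11.09, 10.17, 11.44, 11.03 and 11.43 in DOX and rose by 0.89 (SE 0.18, adjusted p = 0.0419), again with DOX 2 inside the PBS range. The Gvin1 call was lost in the same settings as that of Ifit2, at adjusted p of 0.062 to 0.0887.

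In antigen presentation 1 gene rose. Of 16 listed genes of MHC class I and the immunoproteasome 15 were tested, 12 were higher, and Psmb9 was the 1 called, with 0 lower and a median difference of 0.20. Psmb9, the LMP2 subunit of the immunoproteasome, read 9.06, 9.0, 8.79, 8.74 and 8.48 in PBS and 9.35, 9.12, 9.50, 9.39 and 9.40 in DOX and rose by 0.54 (SE 0.10, adjusted p = 0.0283) with no overlap. The Psmb9 call was lost with only the 10 PBS and DOX arrays (adjusted p = 0.0648). Nlrc5, the transactivator of MHC class I genes, and H2-T23 differed by 0.53 and 0.51 at adjusted p of 0.15 and 0.185, and passed only without DOX 2.

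A further 5 genes that rose belong to families known to respond to interferon and are in none of the lists. Ly6e, a membrane protein that affects virus entry, rose by 0.72 (SE 0.11, adjusted p = 0.0101), from 11.27, 11.14, 10.99, 11.01 and 10.90 in PBS to 12.01, 11.74, 11.89, 11.94 and 11.33 in DOX. Oas1g rose by 0.63, Phf11d by 0.64, Phf11a by 0.42 and Trim34a by 0.56, at adjusted p of 0.0380 to 0.0450. Oas1g, Phf11d and Phf11a each have near-identical relatives on the same chromosome, so these probes may read more than 1 gene.

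The core of the interferon-stimulated response element, searched as GAAANNGAA on both strands, was found near the start of 10 of 30 genes called higher, or 33.3%, and of 1 of 15 called lower, or 6.7%. It was present in 8.6% of tested genes and 9.8% of all 27025 genes with a promoter in the table. Among genes called higher that are on the interferon or GTPase lists it was present in 6 of 11, or 54.5%, and among the others in 4 of 19, or 21.1%. The core was matched at least 2 times in 6 genes called higher, and the 4 of these whose matches all lie before the start are shown for that reason, with the matches in capitals, 5′ to 3′ along the gene in GRCm38.p6. Ifit3 is at chr19:34583354-34583455 and Gbp3 at chr3:142559980-142560034 on the plus strand, and Bst2 at chr8:71537568-71537622 and Oas1g at chr5:120887614-120887651 on the minus strand.
Ifit3: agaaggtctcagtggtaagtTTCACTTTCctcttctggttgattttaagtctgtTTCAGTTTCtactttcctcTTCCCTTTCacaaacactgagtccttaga
Gbp3: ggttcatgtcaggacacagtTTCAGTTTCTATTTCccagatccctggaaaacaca
Bst2: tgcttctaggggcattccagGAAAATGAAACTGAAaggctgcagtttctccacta
Oas1g: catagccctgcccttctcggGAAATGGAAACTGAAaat
In the genes shown no match overlapped another motif searched. In Gbp3, Bst2 and Oas1g the matches overlap each other and form a single run, which in Gbp3 lies between 44 and 30 bases before the start and in Oas1g between 18 and 4 bases before it. The matches of Ifit3 lie between 155 and 94 bases before the start. Those of Ifitm3 lie after the start, and those of Lgals9 on either side of it. The TATA box letters TATAAA were present in 8 of 30 genes called higher, 26.7%, against 10.4% of tested genes, and in 0 of 15 called lower. CACGTG, the E-box that clock factors bind, was present in 1 of 30 and 0 of 15, against 11.3% of tested genes. TTATGTAA, the D-box that Dbp binds, was present in neither group and in only 0.8% of tested genes, so its absence says little.

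Neutrophil proteins and a monocyte chemokine were the other large rises. S100a9 and S100a8 form calprotectin, which neutrophils and monocytes carry in bulk. S100a9 read 7.08, 6.85, 7.01, 6.99 and 6.89 in PBS, where 3 of 5 arrays were above background, and 8.28, 7.82, 8.23, 8.93 and 8.25 in DOX. It rose by 1.34 (SE 0.18, adjusted p = 0.00921), and the call held whichever array was left out. S100a8 read 7.14, 6.85, 6.77, 6.90 and 6.95 in PBS, with 2 of 5 arrays above background, and 8.18, 7.69, 7.82, 8.75 and 8.06 in DOX, a rise of 1.18 (SE 0.18, adjusted p = 0.0102). On both genes the DOX arrays all lay above the PBS arrays, and DOX 4 was the highest. The PBS means of both lie close to the background limit of 6.92, so both rises are likely understated.

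Of 12 listed neutrophil markers 7 were tested, all 7 were higher in DOX with a median difference of 0.21, and S100a8 and S100a9 were the 2 called, with and without DOX 2. The list mean lay between -0.07 and 0.06 on the PBS arrays and between 0.32 and 0.67 on the DOX arrays, and DOX 2 lay above every PBS array on it. This mean includes S100a8 and S100a9, whose rises are far larger than the median, so it adds little beyond those 2 genes. Of the remaining markers Retnlg and Csf3r, the receptor for granulocyte colony-stimulating factor, differed by 0.21 (adjusted p = 0.0876) and 0.16 (adjusted p = 0.369), and Ngp, Ltf, Mmp8 and Cxcr2 were too dim to be tested. Whether more neutrophils or more RNA per cell lies behind the rise was not tested.

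Ccl12, a chemokine that attracts monocytes in mice, read 8.29, 7.92, 8.08, 7.49 and 7.29 in PBS and 9.02, 8.44, 9.36, 9.10 and 9.16 in DOX. It rose by 1.20 (SE 0.18, adjusted p = 0.0101) without overlap, and DOX 2 was the lowest DOX array. The other, dimmer Ccl12 probe differed by 0.49 (adjusted p = 0.165), with overlapping groups. Of 21 listed chemokines 16 were tested, 7 were higher and 9 lower with a median of -0.02, and Ccl12 was the 1 called. Ccl9 and Ccl6, which macrophages make, differed by 0.95 (adjusted p = 0.0607) and 0.36 (adjusted p = 0.072) and passed without DOX 2. Ccl2 stayed near background, with a difference of 0.03. Of 20 listed macrophage and monocyte markers 18 were tested, 13 were higher with a median of 0.16, and 0 were called. Fcgr1 and Lyve1 were called higher without DOX 2, with 0 lower. With all arrays Fcgr1, a high-affinity antibody receptor, differed by 0.30 (adjusted p = 0.0753) and Lyve1 by 0.73 (adjusted p = 0.105).

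Among acute-phase and interleukin-6 family genes, 18 of 24 were tested, with 1 called higher, 1 called lower and a median of 0.09. Without DOX 2 the count was 3 higher and 1 lower, adding Osmr and Cebpb, a transcription factor of the acute phase. Serpina3n, a protease inhibitor of the acute phase with several close relatives in mice, read 8.56, 8.22, 8.35, 8.24 and 8.23 in PBS and 9.14, 8.76, 9.53, 9.23 and 8.92 in DOX and rose by 0.80 (SE 0.16, adjusted p = 0.0419). Ctf1, which encodes cardiotrophin-1, a cytokine that cardiomyocytes and fibroblasts release, read 7.98, 8.25, 8.02, 8.31 and 8.19 in PBS and 7.53, 7.83, 7.47, 7.60 and 7.75 in DOX and fell by 0.51 (SE 0.09, adjusted p = 0.0142). The groups of both genes did not overlap. Osmr, the oncostatin M receptor, differed by 0.57 (adjusted p = 0.0902). Of 16 complement components 10 were tested, 9 were higher with a median of 0.19 and 0 were called by brightest probe, and C4b differed by 0.43 (adjusted p = 0.0902). Both probes of C4a, which is in none of the lists and nearly identical to C4b, were called with rises of 0.63 and 0.56.

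Other genes rose outside these groups. Cnksr1, a scaffold of Ras signalling, read 8.09, 7.62, 7.74, 7.90 and 8.03 in PBS and 8.81, 8.60, 8.92, 8.55 and 8.51 in DOX and rose by 0.80 (SE 0.15, adjusted p = 0.0293). On this gene DOX 2 was in the middle of its group. Gpx3, the secreted glutathione peroxidase, rose by 0.57 (SE 0.11, adjusted p = 0.0309), from 10.84 to 11.14 in PBS to 11.35 to 11.69 in DOX. Wipf3, which takes part in actin assembly, rose by 0.62, the histone gene H3c10 by 0.51, Mmp3, a matrix protease also called stromelysin, by 0.55 and Man2a1, a mannosidase of the Golgi, by 0.39, at adjusted p of 0.0293 to 0.0426. Ly6c1, which marks endothelial cells and has a near copy in monocytes, rose by 0.73 (adjusted p = 0.0426), and was the 1 called among 19 tested endothelial markers, whose median was 0.01. Leaving out DOX 2 added 1 lower, Aplnr, the apelin receptor. The other 2 probes of H3c10 differed by 0.19 and -0.008, and the call of Mmp3 was lost once the background was subtracted (adjusted p = 0.0666).

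The largest fall was in Dbp, a gene of circadian clock output. Dbp, a transcription factor driven directly by the clock, read 11.16, 12.16, 10.78, 11.98 and 13.10 in PBS and 9.96, 9.97, 10.61, 9.08 and 10.29 in DOX. It fell by 1.85 (SE 0.37, adjusted p = 0.0388), or 3.62-fold, and the groups did not overlap, but the PBS arrays spanned 10.78 to 13.10, with an SD of 0.91. The call was lost with only the 10 PBS and DOX arrays (adjusted p = 0.054), with no variance trend (0.0615), with a robust variance prior (0.12) and with the replicate number as a block (0.0624). Of 22 listed clock genes 16 were tested, 5 were higher and 11 lower with a median of -0.09, and Dbp was the 1 called. Nr1d1, the repressor REV-ERB alpha, differed by -0.71 (adjusted p = 0.0576) and passed without DOX 2. Arntl, the core activator BMAL1, differed by 0.47 (adjusted p = 0.569), Per2 by -0.27 (adjusted p = 0.868) and Per1 by 0.10 (adjusted p = 0.923), none past the test. The clock list averaged 0.39 on PBS 5 and -0.24 to 0.065 on PBS 1 to PBS 4, and on the DOX arrays it ran from -0.36 to 0.06. The clock time of death of each animal is not given in the sources used here, so a difference in time of day between groups cannot be told apart from the treatment.

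**Figure D4:**
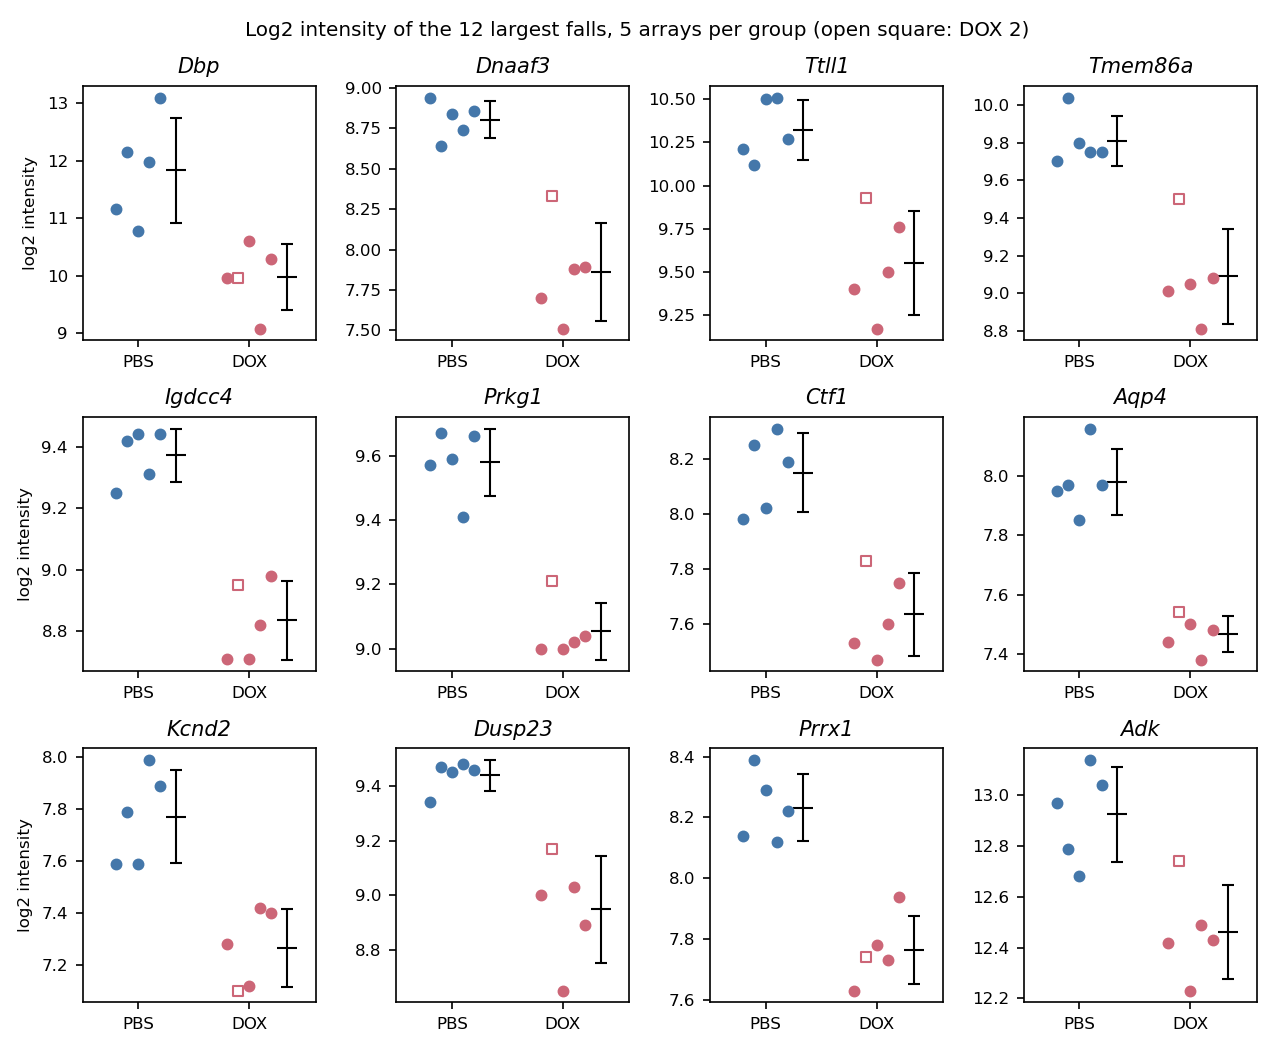
Log2 intensity (vertical axis) on each of the 5 PBS and 5 DOX arrays (horizontal axis) for the 12 largest falls, with the group mean and SD beside the points and DOX 2 as an open square. The groups overlap for Adk and for none of the other 11.

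With background left in, the remaining falls were smaller than 2-fold, and most are in none of the lists. Dnaaf3, a factor that assembles axonemal dynein, read 8.94, 8.64, 8.84, 8.74 and 8.86 in PBS and 7.70, 8.33, 7.51, 7.88 and 7.89 in DOX. It fell by 0.94 (SE 0.13, adjusted p = 0.00921), and DOX 2 was the highest DOX array. After subtracting the background the Dnaaf3 difference was -1.51 (adjusted p = 0.011). Ttll1, a tubulin polyglutamylase, read 10.21, 10.12, 10.50, 10.51 and 10.27 in PBS and 9.40, 9.93, 9.17, 9.50 and 9.76 in DOX and fell by 0.77 (SE 0.14, adjusted p = 0.0293). Tmem86a, a lysoplasmalogenase, read 9.70, 10.04, 9.80, 9.75 and 9.75 in PBS and 9.01, 9.50, 9.05, 8.81 and 9.08 in DOX. Its fall was 0.72 (SE 0.12, adjusted p = 0.0123). In all 3 genes the groups were apart and DOX 2 lay nearest to PBS.

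Aqp4, a water channel that skeletal muscle and heart of the mouse express, had the smallest adjusted p of all probes. It read 7.95, 7.97, 7.85, 8.16 and 7.97 in PBS and 7.44, 7.54, 7.50, 7.38 and 7.48 in DOX and fell by 0.51 (SE 0.06, adjusted p = 0.00415), a fall of 1.43-fold whose call held with any array left out. After subtracting the background the difference was -1.10 (adjusted p = 0.00325). The other tested probe of Aqp4, near background, differed by -0.03. Igdcc4, a membrane protein of the immunoglobulin superfamily, read 9.25, 9.42, 9.44, 9.31 and 9.44 in PBS and 8.71, 8.95, 8.71, 8.82 and 8.98 in DOX and fell by 0.54 (SE 0.08, adjusted p = 0.0101). Prrx1, a homeobox factor of mesenchymal cells, read 8.14, 8.39, 8.29, 8.12 and 8.22 in PBS and 7.63, 7.74, 7.78, 7.73 and 7.94 in DOX and fell by 0.47 (SE 0.09, adjusted p = 0.0283). On these probes the arrays of each gene fell into separate ranges by group. Of 2 tested Igdcc4 probes 1 was called, and they differed by -0.54 and -0.11. Of 5 tested Prrx1 probes 1 was called, and they ranged from -0.47 to 0.07.

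Among signalling and metabolic enzymes, Prkg1, the cyclic GMP-dependent protein kinase of smooth muscle and heart, read 9.57, 9.67, 9.59, 9.41 and 9.66 in PBS and 9.0, 9.21, 9.0, 9.02 and 9.04 in DOX. It fell by 0.53 (SE 0.09, adjusted p = 0.0142), and DOX 2 lay above the other DOX arrays, which were close together. Dusp23, a small phosphatase, read 9.34, 9.47, 9.45, 9.48 and 9.46 in PBS and 9.0, 9.17, 8.65, 9.03 and 8.89 in DOX and fell by 0.49 (SE 0.09, adjusted p = 0.0293). Adk, adenosine kinase, which clears adenosine, read 12.97, 12.79, 12.68, 13.14 and 13.04 in PBS and 12.42, 12.74, 12.23, 12.49 and 12.43 in DOX and fell by 0.46 (SE 0.10, adjusted p = 0.0419), and its DOX 2 value lay inside the PBS range. Il15, a cytokine that muscle expresses, fell by 0.46, Nudt7, a coenzyme A hydrolase of peroxisomes, by 0.45, D630003M21Rik by 0.41, Tmem65, a membrane protein of mitochondria, by 0.38, Rragd, a Rag GTPase that signals amino acids to mTORC1, by 0.37, and Nme7 by 0.29, at adjusted p of 0.0179 to 0.0419. Nme7 has 6 tested probes that differed from -0.29 to 0.11, so the fall of the gene as a whole is uncertain, and another probe of Rragd differed by 0.05.

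A pair of potassium channel genes fell. Kcnd2, which encodes Kv4.2 of the transient outward current in mouse ventricle, read 7.59, 7.79, 7.59, 7.99 and 7.89 in PBS and 7.28, 7.10, 7.12, 7.42 and 7.40 in DOX and fell by 0.51 (SE 0.10, adjusted p = 0.0388). Kcnj8, the Kir6.1 subunit of ATP-sensitive channels in mural cells, read 9.10, 8.94, 8.95, 9.10 and 9.10 in PBS and 8.70, 8.75, 8.61, 8.58 and 8.82 in DOX and fell by 0.35 (SE 0.07, adjusted p = 0.0419). Neither gene had overlapping groups on these probes. The call of Kcnd2 was lost once the background was subtracted, where it differed by -1.38 (adjusted p = 0.13), and with no variance trend (0.0573). The call of Kcnj8 was lost with only the 10 PBS and DOX arrays (0.0835) and with the replicate number as a block (0.0631). Of 22 listed potassium and sodium channel genes 16 were tested, 14 were lower and 2 higher with a median of -0.17, and by brightest probe Kcnj8 was the 1 called, since the brighter probe of Kcnd2 differed by -0.64 at an adjusted p of 0.14. Scn4b, a sodium channel subunit, differed by -0.73 (adjusted p = 0.13) and passed without DOX 2, as did Kcnj5, at 0.36, and Kcnh2 and Kcnip2 differed by -0.39 and -0.34 at adjusted p of 0.134 and 0.158. The list mean lay between -0.05 and 0.06 on the PBS arrays and between -0.29 and -0.07 on the DOX arrays.

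Kcnj8 was also the 1 called among 14 tested smooth muscle and pericyte markers, all of which were lower in DOX, with a median of -0.17. Myl9, the regulatory myosin light chain of smooth muscle, and Pdgfrb, a receptor of pericytes, differed by -0.23 (adjusted p = 0.446) and -0.17 (adjusted p = 0.47). The list mean on the DOX arrays ran from -0.32 to -0.02, and on the PBS arrays from -0.11 to 0.12. Of 16 tested calcium handling genes 15 were lower with a median of -0.08 and 0 were called, and Slc8a1, the sodium-calcium exchanger, differed by -0.30 (adjusted p = 0.291). Leaving out DOX 2 gave 0 higher and 1 lower, which was Asph. Atp2a2, the calcium pump SERCA2, differed by -0.06 and -0.04 on its brighter probes and by -0.59 (adjusted p = 0.0553) on the third, so its probes disagree.

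**Figure D5:**
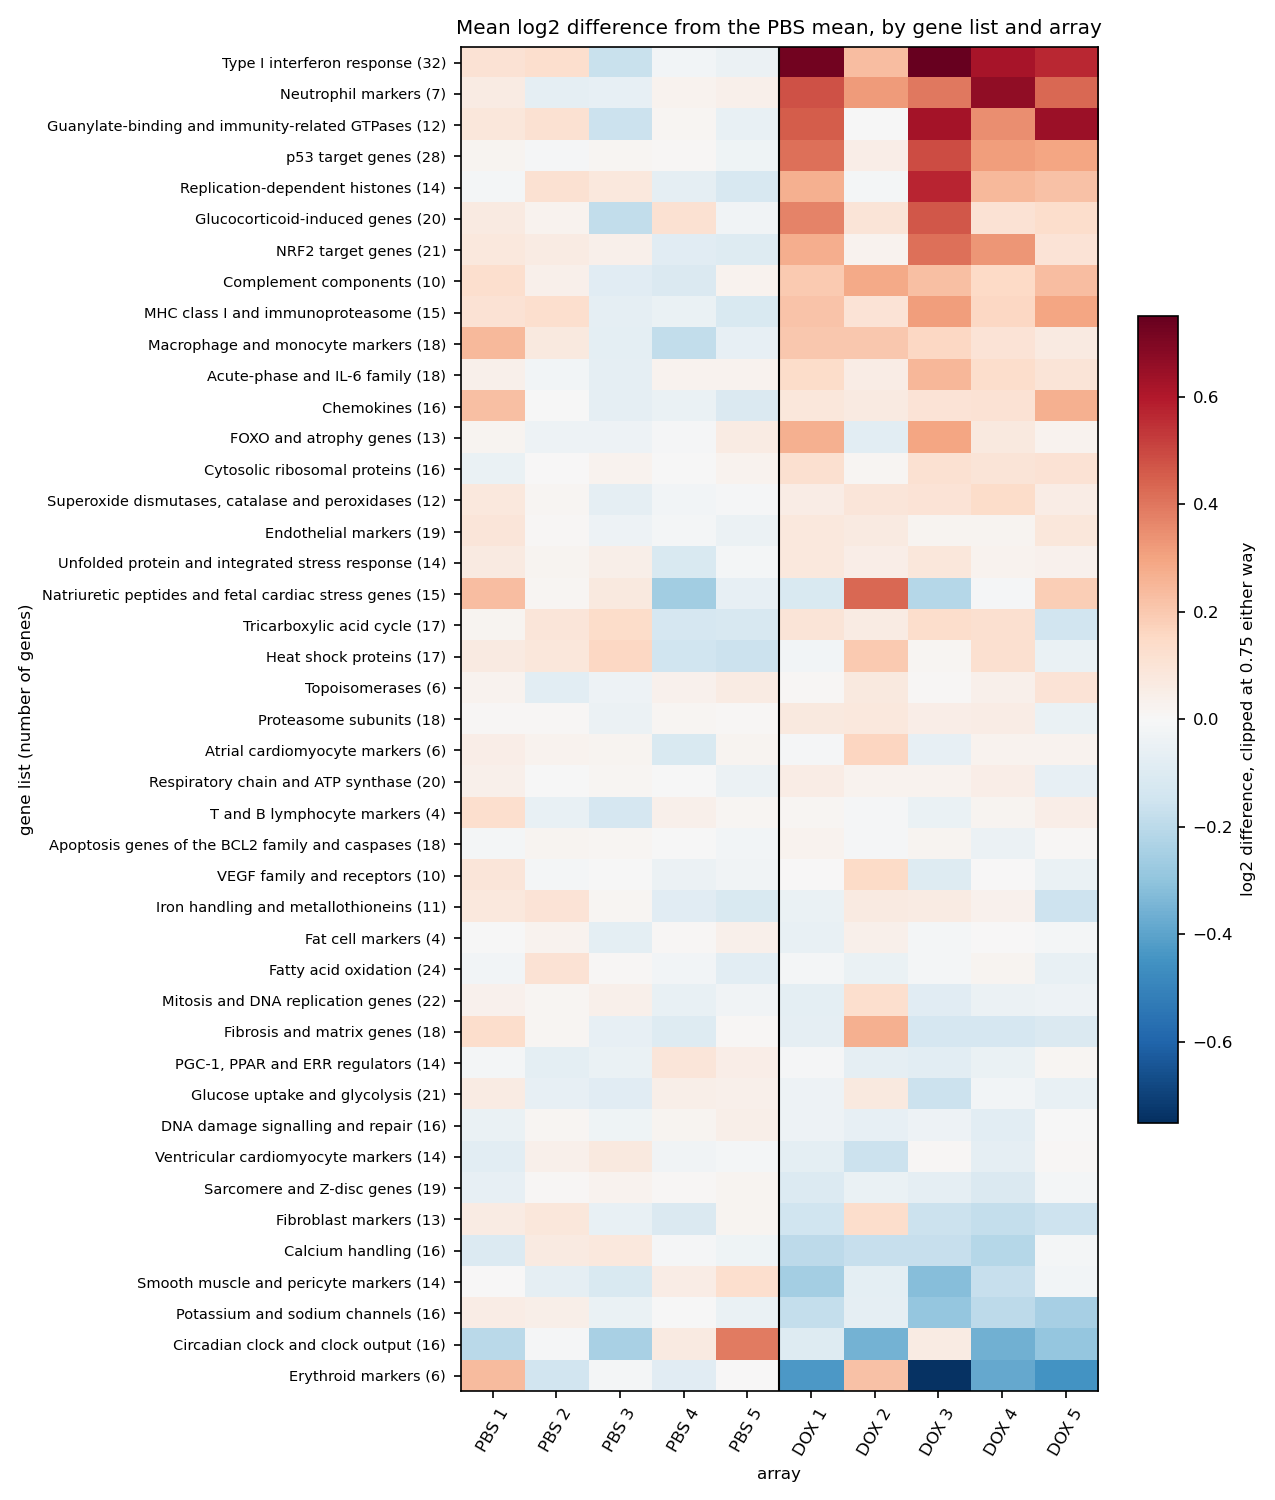
Mean log2 difference from the PBS mean (colour) for each of the 43 gene lists (rows, with the number of tested genes) on each PBS and DOX array (columns). The interferon list reads 0.56 to 0.90 on DOX 1, 3, 4 and 5 and 0.23 on DOX 2, and the erythroid list is above 0 on DOX 2 alone among the DOX arrays.

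The contractile and stress genes of the muscle had no called gene. None of 14 tested ventricular markers, 6 atrial markers, 19 sarcomere and Z-disc genes or 15 natriuretic peptide and fetal stress genes was called, with medians of -0.07, 0.03, -0.05 and 0.08. Tcap, the titin cap of the Z-disc, came nearest with -0.37 (SE 0.08, adjusted p = 0.0519), and passed without DOX 2 together with Flnc, filamin C, at -0.52. In the stress list Csrp3, the muscle LIM protein, passed without DOX 2 at -0.37. Nppa, the atrial natriuretic peptide, differed by 0.08 (adjusted p = 0.93). Nppb, the brain natriuretic peptide, differed by -0.78 (SE 0.48, adjusted p = 0.616) with an SD of 1.45 between DOX arrays, and Myh7, the beta myosin heavy chain of stressed mouse ventricle, by 0.20 (adjusted p = 0.466). The stress list averaged 0.43 on DOX 2, while DOX 1, 3, 4 and 5 gave -0.22 to 0.19, beside -0.26 to 0.23 in PBS.

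Energy metabolism also had no called gene. Fatty acid oxidation (24 tested genes), glucose uptake and glycolysis (21), the tricarboxylic acid cycle (17), the respiratory chain with ATP synthase (20) and the PGC-1, PPAR and ERR regulators (14) had medians of 0.01, -0.02, 0.03, 0.003 and -0.04. Slc2a4, the insulin-dependent glucose transporter GLUT4, differed by -0.64 (adjusted p = 0.211) and by -0.84 without DOX 2, where it passed at 0.0122. Pdk4, which holds back glucose oxidation, differed by -0.25 (adjusted p = 0.795). Iron handling and metallothioneins (11 tested genes) had a median of 0.03 and no call, and within it Tfrc, the transferrin receptor, differed by -1.22 (SE 0.43, adjusted p = 0.289) and passed without DOX 2 at 0.0195. Tfrc is also the receptor of young red cells, and the erythroid markers had a median of -0.49 with 5 of 6 lower and 0 called.

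Defences against oxidants gave a single call, outside the NRF2 list. Of 21 tested NRF2 targets 19 were higher with a median of 0.15, and 2 passed without DOX 2, Ephx1, an epoxide hydrolase, and Gclm, a subunit of the enzyme that starts glutathione synthesis. With all arrays Ephx1 differed by 0.95 (adjusted p = 0.217), Srxn1, sulfiredoxin, by 0.33 (adjusted p = 0.152) and Hmox1, haem oxygenase 1, by 0.29 (adjusted p = 0.713). Among 12 tested superoxide dismutases, catalase and peroxidases the median was 0.06 and Gpx3 was the 1 called. Replication-dependent histones, 14 tested, had 12 higher with a median of 0.30 and 0 called, and 7 passed without DOX 2; H4c12 differed by 0.62 (adjusted p = 0.133) and H1f2 by 0.59 (adjusted p = 0.241). H3c10, which was called, belongs to this class and is not on the list. The copies of these genes are near-identical, so their probes may share signal. The histone list averaged -0.02 on DOX 2, whereas DOX 1, 3, 4 and 5 gave 0.22 to 0.57.

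Genes of DNA repair (16 tested, median -0.03), topoisomerases (6, 0.06), apoptosis (18, 0.02) and mitosis and replication (22, -0.005) had no call, and without DOX 2 the 1 call was Bik, an apoptosis gene, at -0.39. Top2a, the topoisomerase of dividing cells, was near background and differed by 0.01 and -0.06 on its probes. Top2b, the form in resting cardiomyocytes, was also near background, with means of 6.91 in PBS and 6.97 in DOX. It differed by 0.06 (adjusted p = 0.836), and a probe this dim says little about a change. Mcl1, which protects cells from apoptosis, and Bbc3, the p53 target PUMA, differed by 0.26 (adjusted p = 0.246) and 0.32 (adjusted p = 0.442). Among glucocorticoid-induced genes, where 20 were tested, the median was 0.17 and Cdkn1a, which is on both lists, was the 1 called. Fkbp5, a standard glucocorticoid reporter, differed by 0.29 (adjusted p = 0.405).

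The last lists held no call with all arrays. FOXO and atrophy genes (13 tested) had a median of 0.14, heat shock proteins (17) 0.09, the unfolded protein and integrated stress response (14) 0.04, cytosolic ribosomal proteins (16) 0.06, proteasome subunits (18) 0.05, fibrosis and matrix genes (18) -0.06, and the VEGF family and its receptors (10) 0.04. Rps27l, a ribosomal protein gene that p53 induces, came nearest of these with 0.42 (SE 0.09, adjusted p = 0.0607), and passed without DOX 2. Ccn2, a matricellular growth factor, differed by 0.68 (adjusted p = 0.243) and Vegfb, the gene carried by the vector of the group not compared, by 0.04 (adjusted p = 0.898). Without DOX 2 the calls in these lists were Rps27l and Rps19 higher, and Hspb7, Psmb2, Col4a2, Col15a1 and Nrp1 lower. Nrp1, a coreceptor for VEGF, then differed by -0.47 and Col15a1, a basement membrane collagen, by -0.82. Fibroblast markers, 13 tested, had 10 lower and a median of -0.10, lymphocyte markers, 4 tested, a median of -0.05 and fat cell markers, 4 tested, a median of -0.005, all with 0 calls.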

How the data were processed

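The values are the authors' deposited table of 1 value per probe and array. Their log2 scale is inferred from the span of the deposited values, 6.52 to 14.93, since no label states it. The sorted values of the arrays differ by at most 0.01 and every median is 6.92, as quantile normalization by the authors would leave them, though no label names it. The software, the log base and any background correction are not given in the sources used here. TRIsure and NucleoSpin RNA II were used to extract the RNA, and an Ambion MessageAmp kit to label it, per the labels' protocols. A table of raw signals was not used here because its 15 sample columns match no label; the planned test on raw signals was replaced by the test below.

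Background was the mode of all values, 6.80, with an SD of 0.0729 below it. Probes above the 95% limit of this background, 6.92, on 5 or more of 15 arrays entered the test. The arrays give no depth, and their number limits the precision. A log2 value with background left in understates a change. After subtracting the background, folds were compared for the 63 called probes with a symbol above the limit on every PBS and DOX array. This set leaves out S100a8 and S100a9. The folds of the 63 probes were 1 to 2.98 times as large (median 1.12), and 3 calls were lost. The 3 group means of all 15 arrays were fitted in limma 3.58.1 under R 4.3.3 (lmFit, eBayes with a trend over intensity), leaving 12 residual degrees of freedom, and the DOX minus PBS contrast was adjusted by the Benjamini-Hochberg method. The script was tested on simulated data. Symbols came from the platform annotation (34885 probes with 1 symbol, 18 with several, 10378 with none). Sequences are RefSeq promoters of GRCm38.p6.

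The 43 lists hold 759 genes, of which 692 are on the array and 615 were tested, and the brightest probe stood for a gene. Members and lists were chosen with earlier results of these data known. The rule for names took every called gene, with array values for the 12 largest rises and the 12 largest falls, the members of each list with the smallest p, and a set of genes of interest. Array values of a few other called genes are also given, chosen after their values were seen. Alternatives changed the filter, the arrays in the fit, the variance prior, array weights, the replicate number and the background.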

Additional observations from a re-analysis of the deposited data

Results flagged for a closer look

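Within groups of 5 arrays, the gap between an extreme array and its neighbour was set against the range of the group, and a gap above 0.71 of the range (Dixon's criterion) is given here. It was met in 16 of 134 groups examined, where chance gives about 1 in 20, and many lists share arrays, so the flags are not independent.

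Among single genes, PBS 3 was low for Ifit3 (gap 0.724 of the range, at 8.98 against 9.69 for the next array) and for Gbp3 (0.776, at 8.62 against 9.21). DOX 2 was high for Prkg1 (0.81, at 9.21 against 9.04), and PBS 1 was low for Dusp23 (0.786, at 9.34 against 9.45).

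Among list means, as log2 differences from the PBS mean, DOX 2 was high for fibroblast markers (gap 0.903, at 0.131 against -0.148), fibrosis and matrix genes (0.841, at 0.269 against -0.065) and mitosis and DNA replication genes (0.778, at 0.125 against -0.04), and low for cytosolic ribosomal proteins (0.738, at 0.016 against 0.095). DOX 5 was high for chemokines (0.776, at 0.266 against 0.11) and calcium handling (0.783, at -0.012 against -0.171). It was low for the tricarboxylic acid cycle (0.755, at -0.144 against 0.062), the respiratory chain and ATP synthase (0.712, at -0.06 against 0.024) and proteasome subunits (0.778, at -0.048 against 0.05). PBS 3 was low for proteasome subunits (0.82, at -0.044 against 0.006), PBS 4 for atrial cardiomyocyte markers (0.827, at -0.115 against 0.019) and PBS 1 for sarcomere and Z-disc genes (0.805, at -0.062 against 0.008). The cause of these deviations was not tested.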

How the results depend on the processing

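The count of 80 called probes (56 higher, 24 lower) was within 1.5 times of itself with no filter on dim probes (75), a stricter filter of 10 arrays (81), only the 10 PBS and DOX arrays (60) and a robust variance prior (57), although the latter left 36 higher. It was 53 with 31 higher when the variance prior had no trend over intensity, and 201 with 110 higher and 91 lower with array weights, which gave DOX 2 a weight of 0.79 and DOX 5 a weight of 0.52. Leaving out 1 array at a time gave 2 to 487 calls, 1 to 269 higher and 1 to 218 lower. Without DOX 2 and VEGFB_DOX 3 there were 677 calls, 361 higher and 316 lower. Without PBS 4, PBS 5, DOX 5 and VEGFB_DOX 5 there was 1 call, 1 higher and 0 lower in limma. At an unadjusted p under 0.05, 1354 probes were then higher and 1263 lower. A term for these arrays gave 143 calls, 98 higher and 45 lower. Of the 68 called probes with a symbol, 0 changed sign under any of these settings, and 43 stayed called with only the 10 PBS and DOX arrays, 44 with no trend and 51 with a robust prior. After subtracting the background, 3 of the 63 that were above background on every PBS and DOX array lost the call. These were Kcnd2 (adjusted p = 0.13), Mmp3 (0.0666) and Nme7 (0.063). The cause of these shifts was not tested.

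With the replicate number as a block the count was 81 calls, 53 higher and 28 lower, with 64 of the 80 kept. The 13 lost probes with a symbol were those of Adk, Bst2, Dbp, Gvin1, Kcnj8, Nme7, Oas1g and Trim34a, both of Ifit2, and 1 each of Ei24, Gbp3 and Ifit3, at adjusted p of 0.0510 to 0.0714. The deviations of same-numbered PBS and DOX arrays correlated at 0.15, 0.04, 0.3, -0.17 and 0.41 over probes, and arrays with different numbers at -0.41 to 0.45. Only 3 of the 5 pairs passed 0.1, and 2 PBS and 1 DOX arrays correlated best with their own number, so the numbers were not taken to pair the arrays. Probes near background carry little signal, and differences there are bounded by it.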
